A study of Mus musculus with 8 samples.

Results

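The D cyclin genes Ccnd1, Ccnd2 and Ccnd3, their partner kinase genes Cdk4 and Cdk6, the cyclin E gene Ccne1, the growth factor response genes Myc and Mycn, the retinoblastoma gene Rb1 and the transcription factor gene E2f1 were followed across 8 mouse gene arrays. The 10 genes were taken by their symbol in the platform annotation, out of 22180 genes with a value, and all 10 were measured. They make up the gate through which a resting cell enters the division cycle. Growth factor signals, including those that pass through the RAF kinases to ERK, raise D cyclins, which bind CDK4 or CDK6. These complexes phosphorylate the retinoblastoma protein, which then lets go of E2F factors, and E2F factors switch on cyclin E and the genes of DNA synthesis. MYC proteins favour entry into the cycle and, in many cell types, raise D cyclins and CDK4. CDK4 and the retinoblastoma pathway are best known in pigment cells for their alteration in melanoma, while melanocyte stem cells of the hair follicle spend long periods at rest.

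The arrays were hybridised with amplified cDNA from cells sorted out of mouse skin. P21_KO comprised 4 arrays of cells from 21-day mice of genotype B-raf fl/fl and C-raf fl/fl with TyrCre/° and Z/EG, and P21_WT 2 arrays from 21-day mice of genotype B-raf +/+ and C-raf +/+ with the same 2 transgenes. P4_WT comprised 2 arrays from 4-day mice of the P21_WT genotype. In all 3 groups the tyrosinase promoter drove Cre, Z/EG made recombined cells green, the sort took green cells without surface p75, and the background was a mix of C57Bl/6 and 129/Sv. The labels call the cells melanoblasts, the pigment cell precursors, at 4 days and melanocyte stem cells at 21 days. The floxed alleles came from a 129/Sv stock and the transgenes from C57Bl/6, so strain and genotype cannot be told apart around those alleles. The labels call the arrays biological replicates, but P21_KO replicates 2, 3 and 4 share an unexplained number in their labels, so their independence is not known and p-values may be too small.

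Values are on the log2 scale of RMA, a method that subtracts background, brings arrays to 1 distribution and summarises the probes of a gene. Changes are differences of log2 means, tested with limma over all 22180 genes and called at a Benjamini-Hochberg adjusted p under 0.05. All 10 melanocyte lineage markers read above the array median on every array, with a lowest single value of 5.02. Their mean was 7.05 to 8.55 in P21_KO, 8.82 to 9.04 in P21_WT and 9.60 to 9.64 in P4_WT. The mean of 9 cycling cell markers was 3.31 to 3.73 in P21_KO, 3.86 to 4.03 in P21_WT and 6.21 to 6.61 in P4_WT. P4_WT replicate 2 stood apart in endothelial markers (mean 5.53, against at most 3.56 elsewhere) and immune markers (4.86, against 2.89 to 3.23). Hair shaft markers averaged 6.18 and 4.27 in P4_WT, against 2.87 to 3.01 on the P21 arrays. Markers of Schwann and glial cells averaged 7.72 to 8.08 in P21_KO, 7.66 to 7.68 in P21_WT and 7.32 to 7.43 in P4_WT. In each P21 group against P4_WT 4 of these 8 were called higher and 1 lower. The shares of all genes called higher and lower were 0.757% and 0.852% in P21_WT and 3.05% and 4.68% in P21_KO. Keratinocyte markers averaged 6.81 to 7.79 in P21_KO, 7.37 to 7.54 in P21_WT and 6.33 to 7.19 in P4_WT, and fibroblast markers 6.12 to 6.65, 6.35 to 6.78 and 6.79 to 7.20 in the same groups. The part of these marker levels in the results below was not tested. Braf, a target of the deletion, read 6.57, 6.49, 6.30 and 5.66 in P21_KO and 5.99 and 7.20 in P21_WT, so this probe set does not separate the genotypes. In sorted bulk cells, fewer cells of a type and less RNA per cell cannot be told apart.

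Ccnd1, Ccnd2 and Cdk4 stood highest in P4_WT and were lower on every P21 array of either genotype. Against P4_WT they fell past the threshold in P21_KO, to levels 3.59-fold, 7.40-fold and 3.83-fold lower. In P21_WT the same genes read 2.64-fold, 3.70-fold and 2.79-fold lower than in P4_WT without passing the test. Ccnd3 and the Rb1 row used here read higher at 21 days, and the group means of Myc differed by at most 0.30 on the log2 scale. No member separated P21_KO from P21_WT.

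**Figure D1:**
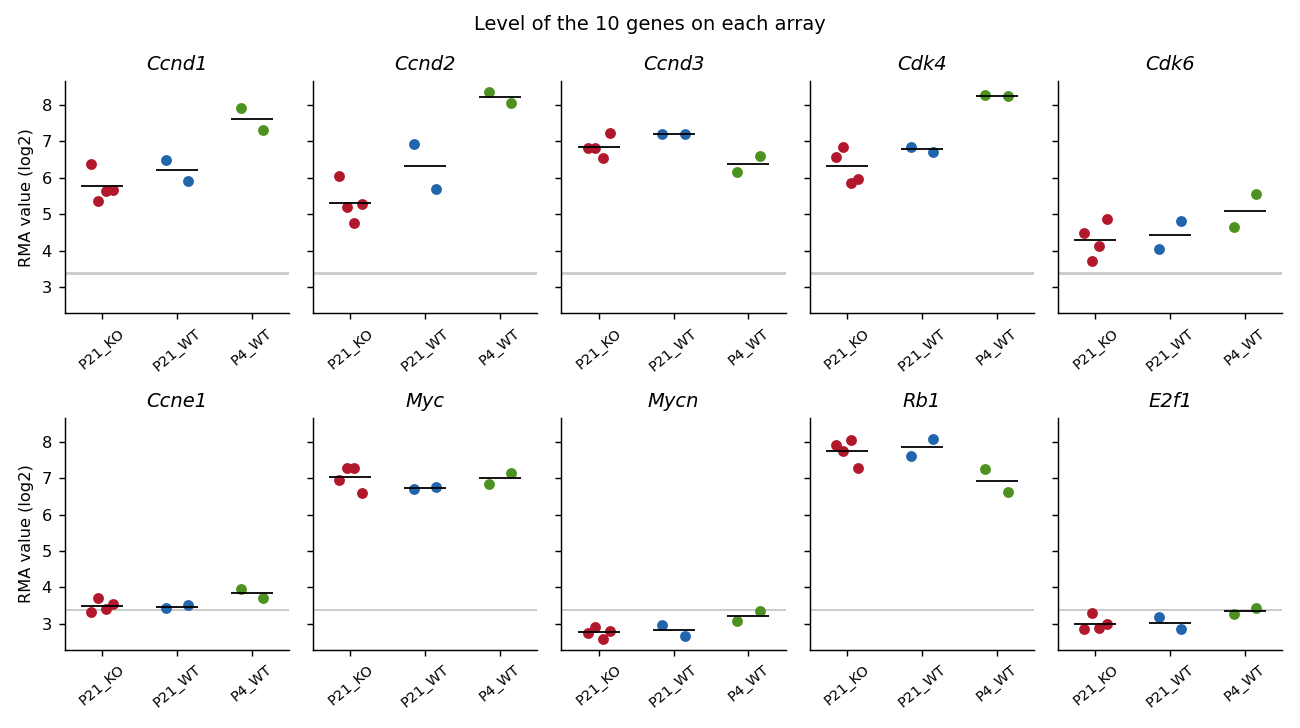
The RMA value on the log2 scale (y axis) is shown for each of the 10 genes in P21_KO (4 arrays), P21_WT (2 arrays) and P4_WT (2 arrays). Points are arrays, black lines are group means, and the grey band is the range of the arrays' medians over all genes. Ccnd1, Ccnd2 and Cdk4 are highest on both P4_WT arrays, while Ccne1, Mycn and E2f1 lie near the grey band.

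Ccnd1 encodes cyclin D1, the D cyclin most closely tied to ERK signalling. It read 6.39, 5.36, 5.64 and 5.66 in P21_KO, 6.49 and 5.93 in P21_WT, and 7.91 and 7.31 in P4_WT. Both P4_WT arrays were above all 6 P21 arrays, and the 2 P21 groups overlapped. It was lower in P21_KO than in P4_WT, with a log2 change of -1.85 ± 0.31 (SE) and a limma adjusted p of 0.0110. Without P4_WT replicate 1 the change was -1.55 and the adjusted p 0.0837, and with the 3 arrays of 1 label number averaged it was -1.64 with an adjusted p of 0.0658. P21_WT differed from P4_WT by -1.40 ± 0.36 (SE; limma adjusted p = 0.124).

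Ccnd2 encodes cyclin D2, which many tissues use beside cyclin D1. Its values were 6.05, 5.21, 4.75 and 5.27 in P21_KO, 6.94 and 5.70 in P21_WT, and 8.37 and 8.05 in P4_WT. The P4_WT arrays again lay above all others, and P21_WT replicate 1 stood above the other P21 arrays. Ccnd2 was lower in P21_KO than in P4_WT, with a log2 change of -2.89 ± 0.41 (SE; limma adjusted p = 0.00528), the widest change among the 10 genes. The call held without any single array. P21_WT differed from P4_WT by -1.89 ± 0.48 (SE; limma adjusted p = 0.112).

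Ccnd3 encodes cyclin D3, the D cyclin often kept in differentiating cells. It had 6.81, 6.82, 6.55 and 7.24 in P21_KO, 7.19 and 7.20 in P21_WT, and 6.16 and 6.60 in P4_WT. Both P21_WT arrays were above both P4_WT arrays, whereas P21_KO replicate 3 read just below P4_WT replicate 2. The log2 change was 0.82 ± 0.25 (SE) for P21_WT against P4_WT (limma adjusted p = 0.186) and 0.47 ± 0.21 (SE) for P21_KO against P4_WT (limma adjusted p = 0.263). Ccnd3 was the D cyclin gene whose sign was opposite to the others by age, but its own change did not pass.

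Cdk4 encodes the main kinase partner of D cyclins. It read 6.58, 6.86, 5.86 and 5.97 in P21_KO, 6.83 and 6.72 in P21_WT, and 8.27 and 8.24 in P4_WT. The 2 P4_WT arrays lay close together and more than 1 log2 unit above every P21 array. Cdk4 was lower in P21_KO than in P4_WT, with a log2 change of -1.94 ± 0.28 (SE; limma adjusted p = 0.00564), and this call too held without any single array. The change for P21_WT against P4_WT was -1.48 ± 0.32 (SE) with a limma adjusted p of 0.0730. It passed with dim genes left out (adjusted p = 0.0465), without P21_KO replicate 2 (0.0487) and with the arrays of 1 label number averaged (0.0262). Its adjusted p ran up to 0.279 over the other settings tried.

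Cdk6 encodes the other D cyclin kinase. It read 4.48, 3.71, 4.13 and 4.87 in P21_KO, 4.03 and 4.81 in P21_WT, and 4.65 and 5.55 in P4_WT. All 3 groups overlapped. P21_KO differed from P4_WT by -0.80 ± 0.38 (SE; limma adjusted p = 0.291) and P21_WT differed from P4_WT by -0.68 ± 0.44 (SE; limma adjusted p = 0.623).

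The promoters of the 2 kinase genes are shown because Cdk4 is a textbook MYC target and Cdk6 encodes the other D cyclin kinase. The changes of the 2 genes were not compared with each other, and a part of MYC in them was not tested. RefSeq windows of 300 bases on build GRCm38.p6, 250 before to 50 after a transcript start, were found for 6 of the 10 genes, Ccnd3, Cdk4, Cdk6, Ccne1, Mycn and E2f1, and not for Ccnd1, Ccnd2, Myc and Rb1. The Cdk4 window is chr10:127063285-127063584 and the Cdk6 window chr5:3343643-3343942, both on the plus strand and printed 5′ to 3′. Capitals mark CACGTG, the palindromic E-box that MYC dimers can bind, which reads the same on both strands.
Cdk4: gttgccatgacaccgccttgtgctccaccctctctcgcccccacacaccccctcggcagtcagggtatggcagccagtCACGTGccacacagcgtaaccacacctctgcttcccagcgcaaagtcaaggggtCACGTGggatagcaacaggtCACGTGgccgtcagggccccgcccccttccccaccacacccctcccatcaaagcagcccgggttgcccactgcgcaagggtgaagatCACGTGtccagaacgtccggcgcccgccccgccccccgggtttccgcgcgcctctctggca
Cdk6: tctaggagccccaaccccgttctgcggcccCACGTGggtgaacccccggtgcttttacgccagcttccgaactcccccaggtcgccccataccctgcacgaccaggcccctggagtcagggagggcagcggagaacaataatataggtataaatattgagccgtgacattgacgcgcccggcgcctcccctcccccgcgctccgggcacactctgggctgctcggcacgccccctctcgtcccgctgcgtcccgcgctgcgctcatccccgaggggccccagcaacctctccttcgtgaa

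The Cdk4 window holds 4 copies of CACGTG and the Cdk6 window 1 copy. Of the 32851 windows in the table, 7.15% hold at least 1 copy and 8 windows (0.0244%) hold 4 or more. The windows of Ccnd3 (2 start sites), Ccne1, Mycn and E2f1 have none. The E2F words TTTGGCGC and TTTCCCGC, searched on both strands, occurred in the Mycn window only, with 2 copies of TTTGGCGC, and in 1.56% of all windows. These matches describe letters in a window and are not measured binding sites. Whether each window covers the main start site of its gene was not checked. The E2f1 window appears to lie inside the gene, so its lack of either word says nothing about the main E2f1 promoter. A word missing from a window can therefore still lie at another start site of the gene.

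The MYC genes code for transcription factors that promote growth and division. Myc had 6.95, 7.29, 7.28 and 6.58 in P21_KO, 6.70 and 6.76 in P21_WT, and 6.84 and 7.14 in P4_WT. P21_KO replicate 4 was the lowest array and P21_KO replicates 2 and 3 the highest, so P21_KO spanned the other 2 groups. The log2 change was 0.04 for P21_KO against P4_WT (limma adjusted p = 0.959, 95% interval -0.48 to 0.55) and -0.26 for P21_WT against P4_WT (limma adjusted p = 0.793, 95% interval -0.85 to 0.33). The interval for P21_WT leaves room for a fall of Myc in P21_WT. Mycn, the relative of Myc used in embryonic and neural tissues, read 2.57 to 2.92 in P21_KO, 2.96 and 2.67 in P21_WT, and 3.06 and 3.34 in P4_WT. It was below the array's median gene on all 8 arrays. Its change for P21_KO against P4_WT, -0.44 ± 0.17 (SE), did not pass (limma adjusted p = 0.180).

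Rb1 encodes the retinoblastoma protein, which holds E2F factors in check. The row used read 7.90, 7.73, 8.05 and 7.28 in P21_KO, 7.62 and 8.07 in P21_WT, and 7.24 and 6.62 in P4_WT. All 6 P21 arrays were above both P4_WT arrays, narrowly so for P21_KO replicate 4 and P4_WT replicate 1. The change was 0.81 ± 0.27 (SE) for P21_KO against P4_WT (limma adjusted p = 0.120) and 0.91 ± 0.31 (SE) for P21_WT against P4_WT (limma adjusted p = 0.243). The annotation pairs 4 rows with Rb1, and the other 3 went the opposite way. A second row annotated to Rb1 alone read 2.00 to 3.13 in P21_KO, 4.54 and 2.26 in P21_WT, and 3.35 and 4.18 in P4_WT. Its change for P21_KO against P4_WT was -1.17 ± 0.59 (SE; limma adjusted p = 0.321). The other 2 rows are annotated to both Rb1 and Lpar6, a receptor gene that lies inside Rb1 in the gene table. They differed by -1.44 ± 0.37 (SE; limma adjusted p = 0.0551) and -0.86 ± 0.28 (SE; limma adjusted p = 0.116) in the same comparison. No direction for Rb1 can be read from these rows together.

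**Figure D2:**
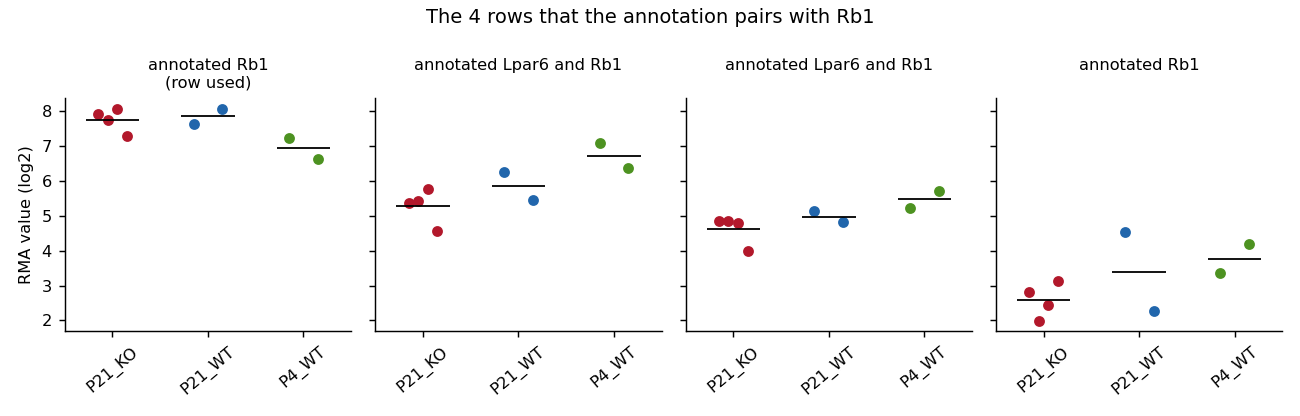
The RMA value on the log2 scale (y axis) is shown for the 4 rows that the annotation pairs with Rb1, ordered by mean. Points are arrays of P21_KO, P21_WT and P4_WT, and black lines are group means. The row used is higher on the 6 P21 arrays than in P4_WT, and the 2 rows shared with Lpar6 have their highest mean in P4_WT.

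E2f1 encodes the activating E2F factor best known for driving entry into DNA synthesis. It read 2.84, 3.29, 2.88 and 3.00 in P21_KO, 3.18 and 2.85 in P21_WT, and 3.26 and 3.42 in P4_WT. It was above the array's median gene on 1 of 8 arrays, and P21_KO overlapped P4_WT. The changes against P4_WT were -0.33 ± 0.18 (SE) in P21_KO (limma adjusted p = 0.356) and -0.33 ± 0.21 (SE) in P21_WT (limma adjusted p = 0.610). Ccne1, whose product cyclin E partners CDK2 after the gate, read 3.33, 3.71, 3.40 and 3.55 in P21_KO, 3.43 and 3.51 in P21_WT, and 3.95 and 3.72 in P4_WT. P4_WT was highest, with P21_KO replicate 2 just below P4_WT replicate 2. The changes against P4_WT were -0.34 ± 0.16 (SE) in P21_KO (limma adjusted p = 0.286) and -0.36 ± 0.18 (SE) in P21_WT (limma adjusted p = 0.487). E2f1, Ccne1 and Mycn thus had signals near or below the median gene.

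The age comparison of wild-type cells, P21_WT against P4_WT, called none of the 10 members with limma, while 1.61% of all genes were called (0.757% higher and 0.852% lower). At an unadjusted p under 0.05, 5 members passed, against 12.6% of all genes. The arrays of the 2 groups did not overlap for 9 members, 7 lower and 2 higher in P21_WT. Over all genes 22.1% were lower and 21.4% higher in that sense. Of the members 8 had a change below 0, against 49.8% of all genes. Their median change was -0.37, against 0.00 over all genes. In the comparison of P21_KO with P4_WT limma called 3 members lower and 0 higher, while 7.73% of all genes were called, 4.68% lower and 3.05% higher. Without limma's moderation of the variances none of the 3 passed, with adjusted p of 0.0888 for Ccnd1, 0.0678 for Ccnd2 and 0.0626 for Cdk4. At an unadjusted p under 0.05, 5 members passed, against 20.5% of all genes. Here 5 members were lower and 1 higher without overlap, against 15.5% and 14.2% of all genes. The change was below 0 for 7 members, against 47.3% of all genes, and the median was -0.39, against 0.02 over all genes. These groups differ in both age and genotype, which cannot be told apart in that comparison. The 2 comparisons share the P4_WT arrays, and P21_KO has 4 arrays, so its standard errors are smaller (0.31 against 0.36 for Ccnd1). Calls in P21_KO that are missing in P21_WT therefore do not show that the 2 genotypes differ, which the next comparison tests.

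The genotype comparison asks how melanocyte stem cells with recombined B-raf and C-raf alleles differ from wild-type ones. Between P21_KO and P21_WT the arrays overlapped for all 10 members, while 7.64% of all genes were lower and 7.75% higher without overlap. Limma called 0 of 22180 genes (0%). Before adjustment 1447 genes (6.52%) had a p under 0.05, and 1 member, Ccnd2, was among them. The change was below 0 for 8 members, against 48.6% of all genes. Ccnd2 differed by -0.998 ± 0.41 (SE; limma adjusted p = 0.748, 95% interval -1.94 to -0.05). Leaving out P21_WT replicate 1 or 2 moved that change to -0.37 or -1.62, so it rested on the wild-type arrays. Ccnd1 differed by -0.45 (95% interval -1.17 to 0.27; limma adjusted p = 0.884), Cdk4 by -0.46 (-1.10 to 0.18; adjusted p = 0.871) and Ccnd3 by -0.35 (-0.84 to 0.15; adjusted p = 0.879). Myc differed by 0.30 (95% interval -0.22 to 0.81; limma adjusted p = 0.895). For the other 5 members the change lay between -0.12 (Cdk6) and 0.02 (Ccne1). The intervals do not exclude a fall of Ccnd1 or Cdk4 by more than 1 log2 unit. The melanocyte marker mean was lower on all 4 P21_KO arrays than on both P21_WT arrays, and its part in these values was not tested.

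**Figure D3:**
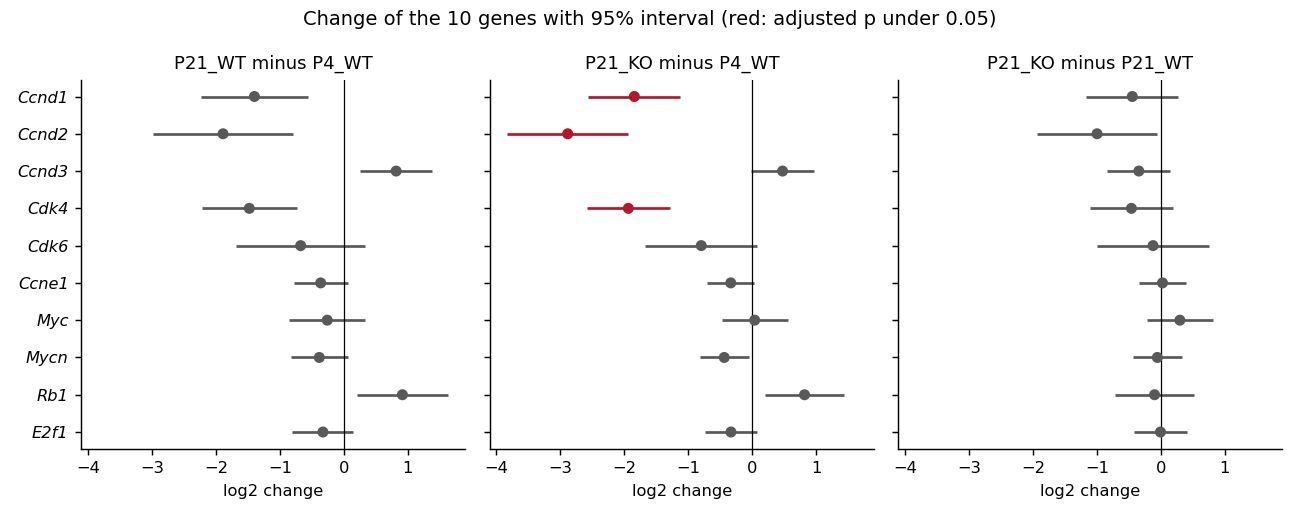
The log2 change (x axis) of each gene is shown with its 95% interval for P21_WT minus P4_WT, P21_KO minus P4_WT and P21_KO minus P21_WT. Points left of 0 are lower in the group named first, and red marks an adjusted p under 0.05. Only Ccnd1, Ccnd2 and Cdk4 in P21_KO minus P4_WT are red.

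Past the gate, genes that E2F factors switch on for DNA synthesis were lower at 21 days. All 18 measured genes of this list were lower in P21_WT than in P4_WT, with a median of -0.92, and limma called 3 of them. Over all genes 49.8% were lower and 1.61% were called in this comparison. None of the 3 was called when only P21_WT and P4_WT were fitted, or without moderation of the variances. Rrm2, the ribonucleotide reductase subunit that supplies DNA precursors, read 5.21 and 4.05 in P21_WT and 8.34 and 8.25 in P4_WT. It fell by 3.67 ± 0.47 (SE; limma adjusted p = 0.0103). Mcm6 (-1.56) and Mcm5 (-1.51), helicase subunits of DNA replication, fell as well, and Mcm2 (-1.33) did not pass (limma adjusted p = 0.0642). Mcm5 read near or below the median gene on the P21 arrays. Of the 8 fits that left out 1 array, the Rrm2 call held in 7, the Mcm6 call in 5 and the Mcm5 call in 2. The count of called genes was 1 without P4_WT replicate 2 or P21_WT replicate 1 and 0 without P21_WT replicate 2. In P21_KO against P4_WT all 18 were lower with a median of -0.99 and 12 were called, among them Tk1 (-1.04), which salvages thymidine, and Cdt1 (-0.80), which licenses replication origins. Over all genes 47.3% were lower and 7.73% were called. The Tk1 and Cdt1 calls each held in 3 of the 8 fits that left out 1 array. That count was 3 without P4_WT replicate 2 and 7 without P4_WT replicate 1 or with the arrays of 1 label number averaged. The count was 2 without moderation of the variances and 4 with replicate number as a block. The 9 cycling cell markers were lower on all P21 arrays taken as a mean, and the part of the share of dividing cells in these falls was not tested.

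In the cyclin E and CDK2 module 2 of 9 measured genes fell in P21_WT against P4_WT, beside 0.852% of all genes. They were Ccna2, the S phase cyclin gene (-2.28 ± 0.25 SE; limma adjusted p = 0.00460), and Cks1b, a CDK subunit gene (-1.18; adjusted p = 0.0447). Skp2 (-1.31) and Ccnh (-0.60) did not pass. No gene of the module was called in P21_WT when only P21_WT and P4_WT were fitted, or without moderation of the variances. In P21_KO against P4_WT 3 fell, Ccna2 (-2.69), Cks1b (-1.13) and Cdk2 (-1.73 ± 0.29 SE; limma adjusted p = 0.0105), the kinase partner of cyclins E and A, beside 4.68% of all genes. That count was 1 with replicate number as a block or without moderation of the variances. It also fell without P4_WT replicate 1 or 2. The Cks1b call for P21_WT held in 1 of the 8 fits that left out 1 array, the one without P21_KO replicate 3. The count was 1 in the other 7 and with the arrays of 1 label number averaged.

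Of 12 genes for Rb relatives, the DREAM complex and repressive E2F factors, all 12 were lower in P21_WT than in P4_WT (median -0.41), and 2 fell, beside 49.8% and 0.852% of all genes. E2f8, a repressor that is itself switched on in S phase, read 3.24 and 2.99 in P21_WT and 5.23 and 5.10 in P4_WT, a change of -2.05 ± 0.17 (SE; limma adjusted p = 0.00135). Lin9, a DREAM and MuvB subunit gene, fell by 1.57 ± 0.27 (SE; limma adjusted p = 0.0325). Rbl1, which encodes the Rb relative p107, differed by -0.70 in P21_WT (limma adjusted p = 0.115) and fell by 1.09 ± 0.15 (SE) in P21_KO (limma adjusted p = 0.00524). E2f7 (-0.70 in P21_WT) did not pass. The called genes E2f8, Lin9 and Rbl1 read near or below the median gene on the P21 arrays. The count called in P21_WT was 0 with only P21_WT and P4_WT fitted and 1 without moderation of the variances. P21_KO had 3 called genes against P4_WT, E2f8, Lin9 and Rbl1, beside 7.73% of all genes, and 5 without P21_KO replicate 4. That count was 1 with replicate number as a block and 2 without moderation of the variances. Lin9 lost its P21_WT call without either array of P21_WT or P4_WT and without P21_KO replicate 2 or 3, leaving a count of 1.

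Among the 4 activating E2F and DP partner genes none was called in P21_WT against P4_WT, where Tfdp1 was at -0.56 and Tfdp2 at 0.12. In P21_KO against P4_WT 1 was called, E2f3. The shares of all genes called were 1.61% and 7.73% in these comparisons. E2f3, an activator that can stand in for E2f1, read 3.16, 2.76, 2.17 and 2.42 in P21_KO, 3.41 and 4.27 in P21_WT, and 3.88 and 4.68 in P4_WT. All P21_KO arrays were below all wild-type arrays. The P21_KO values were also below the median gene of their own arrays, which ran from 3.34 to 3.39. The change was -1.66 ± 0.36 (SE) against P4_WT (limma adjusted p = 0.0281) and -1.22 ± 0.36 (SE) against P21_WT (limma adjusted p = 0.609). Against P4_WT the list had 0 called genes with replicate number as a block, without moderation of the variances, and with dim genes left out. The call against P4_WT was lost without P4_WT replicate 2 and without P21_KO replicate 2, 3 or 4, and with the arrays of 1 label number averaged, which left a count of 0.

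MYC works with partner proteins and on many growth genes. None of 11 MYC network genes was called in either comparison with P4_WT (limma, median 0.12 in P21_WT and 0.01 in P21_KO), although 1 was called in each without P4_WT replicate 2. The shares of all genes called were 1.61% in P21_WT and 7.73% in P21_KO. At an unadjusted p under 0.05 there were 1 of 11 network genes in P21_WT and 2 of 11 in P21_KO, near the 12.6% and 20.5% of all genes. Mlxip, which encodes MondoA, a partner of MLX, was at 0.97 and Mnt, a MYC antagonist, at 0.39 in P21_WT. Of 18 MYC target genes 15 were lower in P21_WT than in P4_WT (median -0.34), with 0 called and 4 at an unadjusted p under 0.05, beside 49.8%, 1.61% and 12.6% of all genes. Srm, the spermidine synthase gene, was at -1.58 ± 0.37 (SE; limma adjusted p = 0.0935) and Nop58, for a nucleolar protein, at -0.89. In P21_KO against P4_WT 4 fell: Srm (-1.90), Npm1 (-0.81), Ldha (-0.85) and Eif4a1 (-0.68), beside 4.68% of all genes. The Eif4a1 call held in 0 of the 8 fits that left out 1 array, Npm1 and Ldha in 5 each and Srm in 6. That count was 0 with replicate number as a block or without moderation of the variances, and 1 without P21_KO replicate 3. It was 2 with the lowest row of each gene or with the arrays of 1 label number averaged. The count also fell without P4_WT replicate 1 or 2. Ldha read 3.46, 3.49, 3.19 and 3.06 in P21_KO and 4.30 and 3.99 in P4_WT. Its P21_KO values were near or below the median gene of their arrays. Levels of Myc itself are given above, and their relation to these lists was not tested.

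The brakes and inputs of the gate moved in both directions. Cdkn1a (1.60 ± 0.16 SE) and Cdkn1b (1.13 ± 0.18 SE), the p21 and p27 inhibitor genes, rose in P21_WT against P4_WT (limma adjusted p = 0.00330 and 0.0217) and were the called members of 7 inhibitor genes, beside 0.757% of all genes called higher. The Cdkn1b call was lost without either array of P21_WT or P4_WT, leaving 1. Of 11 genes upstream of cyclin D1, Jun (1.55), Fos (1.98) and Junb (2.07), the AP-1 genes, rose in P21_WT while Lef1, a Wnt pathway factor that can switch on Ccnd1, fell by 2.43 ± 0.26 (SE; limma adjusted p = 0.00460). Over all genes 1.61% were called. With only P21_WT and P4_WT fitted, 1 upstream gene and 0 inhibitor genes were called. Without moderation of the variances these counts were 0 and 1. The Lef1 call held in all 8 fits that left out 1 array, Jun in 6, Fos in 2 and Junb in 1. That count of 4 was 1 without either P21_WT array, 2 without P4_WT replicate 1 or P21_KO replicate 1, 2 or 3, and 1 with the arrays of 1 label number averaged. Etv5, an ERK-responsive ETS factor gene, read 5.94, 4.81, 4.98 and 5.06 in P21_KO, 8.10 and 7.29 in P21_WT, and 8.55 and 7.96 in P4_WT. It fell by 3.06 ± 0.36 (SE) in P21_KO against P4_WT (limma adjusted p = 0.00227), and its change of -2.50 against P21_WT did not pass (limma adjusted p = 0.284). In P21_KO against P4_WT the same 3 AP-1 genes and both inhibitor genes rose, and Lef1 (-3.41) fell as well. These calls, Etv5 included, held in all 8 fits that left out 1 array. The list had 6 called genes there, 5 with the arrays of 1 label number averaged, beside 7.73% of all genes. AP-1 genes also respond to tissue dissociation, and the part of cell isolation was not tested.

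In the genotype comparison none of these lists had a called gene with limma. At an unadjusted p under 0.05 there was 1 of 18 E2F targets, 1 of 9 genes of the cyclin E module, 1 of 12 Rb relatives and 1 of 4 E2F activators. There were 2 of 18 MYC targets, 2 of 7 CDK inhibitors, 3 of 11 upstream genes and 0 of 11 MYC network genes, beside 6.52% of all genes. Median changes lay between -0.25 (E2F targets) and 0.15 (CDK inhibitors), against 0.01 over all genes. Cdkn2d, an INK4 inhibitor of CDK4 and CDK6, read 6.50, 6.68, 6.33 and 6.34 in P21_KO and 4.74 and 6.04 in P21_WT. Every P21_KO array was above both P21_WT arrays, yet a change of 1.08 ± 0.33 (SE) had a limma adjusted p of 0.609. Cdk2 (-1.08) and Cdc25a (-0.72), a phosphatase that activates CDKs, also did not pass. Neither did Lin52 (0.94), Nop56 (-0.61) or Mlx (-0.46).

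**Figure D4:**
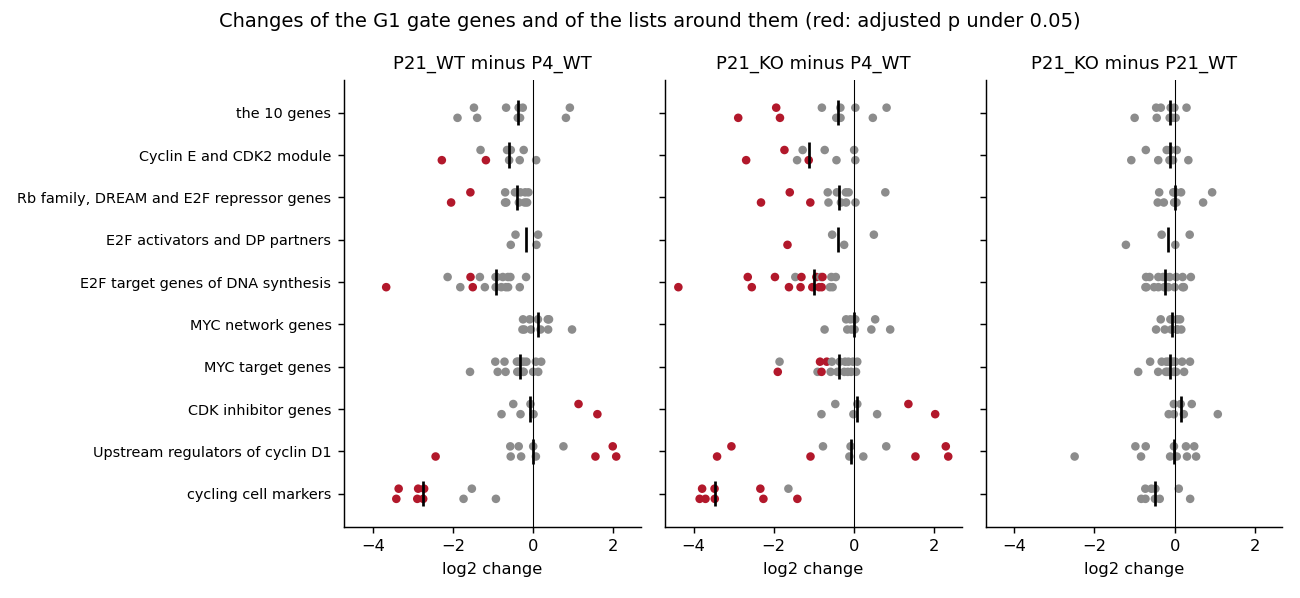
The log2 change (x axis) of every measured gene is shown by list (rows) for P21_WT minus P4_WT, P21_KO minus P4_WT and P21_KO minus P21_WT. Points are genes, black bars are list medians, and red marks an adjusted p under 0.05. E2F target genes and cycling cell markers lie left of 0 in both comparisons with P4_WT, and no point is red between the genotypes.

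Genes with the most similar course were sought over all 22180 genes, as the smallest root mean square difference between log2 values over the 8 arrays after each gene was centred on its own mean. For Ccnd1 they were Rnaseh2b (0.178), Hexa (0.179) and Hddc3 (0.183), where the median gene was 0.866 away. For Ccnd2 they were H2ac15 (0.301), Pla2g15 (0.367) and AU020206 (0.384), with a median of 1.29. For E2f1 they were Orai3 (0.0280), Mylk3 (0.0715) and Olfr823 (0.0909), with a median of 0.325. E2f1 itself varied by only 0.211 around its mean, so closeness to it says little. The 8 arrays fall into 3 groups, and likeness to a member can come from the group means alone.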

How the data were processed

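Whole-transcript arrays of 8 sorted cell samples were used. The submitters' processing notes name RMA and Affymetrix Expression Console for the deposited log2 values, with versions not given in the sources used here. They ran from 0.913 to 12.2. Of 41345 rows, 23521 had 1 gene symbol, 1814 several and 16010 were unnamed here. The single-symbol row with the highest mean was kept, giving 22180 genes. All 3 contrasts came from 1 fit of 3 groups with limma 3.58.1 (lmFit, eBayes, R 4.3.3), two-sided, with Benjamini-Hochberg adjusted p-values across the 22180 genes. The number of arrays limits the precision. The fit was tested on simulated data with independent arrays. Over the 3 comparisons it called 30 to 39% of true log2 changes of 1 and 72 to 82% of changes of 2. The members and lists were chosen with earlier results of these data known. Named genes are the members, up to 4 genes per list with the smallest p by age, up to 2 by genotype, and called genes where a list had 5 or fewer, plus the 3 closest in course to Ccnd1, Ccnd2 and E2f1. Promoter windows came from RefSeq (GRCm38.p6). Alternatives covered the prior, array weights, scaling, dim genes, row choice, the arrays fitted, blocks and leaving out each array.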

Additional observations from a re-analysis of the deposited data

Results flagged for a closer look

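Among 52 genes named above, 5 had 1 P21_KO array far from the other 3, measured as the gap to the nearest array over the group's range. Chance flags about 1 in 20 groups of this size. None of the 10 members was among them. On P21_KO replicate 4, Lin52 read 4.32 against 5.85 to 5.93 on the others, Rrm2 read 3.06 against 4.15 to 4.25, and Fos read 9.59 against 9.20 to 9.26. On P21_KO replicate 3, Cdt1 read 3.55 against 4.00 to 4.07 and Mlx read 4.20 against 4.77 to 4.87.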

How the results depend on the processing

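With no moderation of the variances 0 members were called in P21_KO against P4_WT, against 3 as reported and 2 without P4_WT replicate 1 or with the arrays of 1 label number averaged, and 522 genes were called there, against 1715, and 68, against 357, in P21_WT against P4_WT. In P21_WT against P4_WT 1 member, Cdk4, was called with dim genes left out, at an adjusted p under 0.10 (674 genes) and, in a setting chosen after seeing the data, with the P21_KO arrays of 1 label number averaged. Leaving out 1 array gave 0 to 1 there. That averaging called 977 genes in P21_KO against P4_WT and 1 in P21_KO against P21_WT. Fitting only P21_WT and P4_WT called 49 genes. Leaving out 1 array at a time called 119 (without P21_WT replicate 2) to 338 genes in P21_WT against P4_WT, 921 (without P4_WT replicate 2) to 1529 in P21_KO against P4_WT, and 0 to 15 (without P21_WT replicate 2) in P21_KO against P21_WT. Arrays of different groups with the same replicate number deviated from their group means with correlations of -0.0372 to 0.00573. In a group of 2 arrays the deviations mirror each other, so this cannot settle whether the samples are related. It does not concern the label number shared by some P21_KO arrays. The replicate block called 45 genes in P21_WT against P4_WT and 463 in P21_KO against P4_WT, and put the P21_KO minus P21_WT change at 0.053 for E2f1 and 0.023 for Mycn. Without the block these were -0.0073 and -0.056. With it 3 members were called in P21_KO against P4_WT, and 2 genes upstream of cyclin D1, both lower, against 6.

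Small changes turned sign. For P21_KO minus P21_WT, leaving out 1 array gave -0.046 to 0.080 for Ccne1, -0.51 to 0.27 for Cdk6, -0.17 to 0.16 for E2f1, -0.20 to 0.089 for Mycn and -0.33 to 0.13 for Rb1. Ccne1 was at -0.030 with the averaged arrays and E2f1 at 0.014 with median scaling. For P21_KO minus P4_WT, Myc ran from -0.11 to 0.19. With the lowest row of each gene Eif4a1 was at 0.46 in P21_KO minus P4_WT, and Rb1 was at -1.17 there and at -0.37 in P21_WT minus P4_WT. The Rb1 rows shared with Lpar6, added after seeing the data, gave -0.86 and -1.44 in P21_KO minus P4_WT and -0.50 and -0.88 in P21_WT minus P4_WT. The cause was not tested. Whether the signals of Ccne1, Mycn and E2f1, and of E2f3 in P21_KO, near or below the array median, exceed background was not tested. Nor was it tested for the called genes E2f8, Rbl1, Lin9, Mcm5 and Ldha, which read near or below that median on the P21 arrays.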
